A study of Ciona robusta with 15 samples.

Results

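Oral siphons of the sea squirt Ciona robusta were sampled as non-regenerating tissue, and from the moment of amputation to 8 days of regrowth. Described here are the 200 transcripts, above a minimum level, whose scaled levels moved least for their mean across these siphons. They were chosen from their own values: counts were scaled by library size and a TMM factor (trimmed mean of M-values) to the unit called CPM, transcripts with a mean of at least 20 CPM over the 15 libraries were kept, and the 200 with the lowest coefficient of variation (CV, the SD over the mean of the 15 libraries) were taken. The table held 17745 transcripts, of which 5820 reached that mean, so the steady transcripts were 3.44% of those and 1.13% of all. The animals were wild-type siblings, about 6 months of age, whose parents were a single pair. Polyadenylated RNA from 5 pooled tissue samples went into each library, which was read on an Ion Proton sequencer. The groups, of 3 libraries each, were non-regenerating siphons (NR) and siphons 0, 1, 3 and 8 days after amputation under anaesthesia, where day 0 means that the tissue was taken at once. A pool carries an average of its tissue, and nothing in the labels says whether pools shared animals, so the spread below is between pools.

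The oral siphon is the tube through which the animal draws in seawater, and it holds epidermis, bands of muscle, nerves and blood cells under a cellulose tunic. It regrows after amputation, and dividing cells of the branchial sac are known to supply the regrowing end. In many animals, transcripts that stay level across states encode parts of machinery that nearly every cell uses, such as ribosomes, proteasomes and splicing factors, and such transcripts serve as internal references when other RNAs are measured. Scaling methods such as TMM rest on the assumption that most transcripts do not change. The files pair no identifier with a gene name, and 0 of the 17745 identifiers were found in a reference table of 21486 genes, so the roles of the steady transcripts are not given here, and neither their sequences nor markers of the siphon's tissues could be examined.

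Libraries held 7039611 to 33413013 counts. All 200 steady transcripts had reads in every library, and the smallest count of any of them was 140, in NR replicate 3. At 20 CPM, counting alone gave a CV of 4.33% in the deepest library and 8.43% in NR replicate 3, whose TMM factor was the lowest. Counts are reads and not molecules, so these figures cover counting error only. TMM factors were 0.665 to 0.797 in the NR libraries and 0.940 to 1.21 in the other 12, so that NR libraries were scaled up relative to the rest. On the first principal component of the 5820 transcripts, the NR libraries lay at -81 to -36.9 and all others at -14.6 to 39.2. Replicate 3 of days 1, 3 and 8 lay apart from its own group there, at -14.6 against 13.1 and 20.8, at 31.1 against 9.98 and 13, and at 29.1 against -1.99 and -4.45. Day 0 replicate 3 lay at 23.9, also off its group, at 36.5 and 39.2.

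The steadiest transcript was ENSCINT00000011815. It stood at 146.2, 140.5 and 145.9 CPM in the NR libraries, 135.8, 153.7 and 153.8 CPM at day 0, 144.1, 155.1 and 150.9 CPM at day 1, then 141.5, 158.8 and 143.7 CPM on day 3 and 135.6, 148.8 and 138.4 CPM at day 8. All groups overlapped, and the highest library, day 3 replicate 2, was 1.17 times the lowest, day 8 replicate 1. The mean was 146.2 ± 7.2 CPM (SD over 15 libraries), a CV of 4.93%, of which counting accounted for 18.9% of the variance. ENSCINT00000014865 was next, with a CV of 5.71%. It had 80.2, 89.36 and 89.28 CPM in the NR libraries, 77.12, 81.55 and 78.43 CPM at day 0, 81.36, 79.7 and 81.88 CPM at day 1, then 84.26, 76.26 and 75.38 CPM on day 3 and 87.18, 75.34 and 83.43 CPM at day 8. Both of its highest libraries were NR pools, yet NR replicate 1 lay inside the range of the other groups.

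ENSCINT00000012526, with the next CV at 6.37%, was the nearest of the 200 to its counting error. It had 28.48, 28.56 and 28.15 CPM in the NR libraries, 27.96, 33.22 and 27.94 CPM at day 0, 29.35, 28.62 and 27.95 CPM at day 1, then 27.38, 26.33 and 30.05 CPM on day 3 and 32.68, 28.78 and 28.26 CPM at day 8. Counting gave a CV of 4.82% at this depth, 57.2% of the variance seen. ENSCINT00000010090 followed with 37.67 ± 2.51 CPM, a CV of 6.66%, and group means of 37.97 CPM in NR and 38.05, 36.11, 38.98 and 37.25 CPM at days 0, 1, 3 and 8. ENSCINT00000018935 had 66.37 ± 4.91 CPM and a CV of 7.40%. Its day 0 libraries were among its lowest, at 57.15, 63.92 and 61.65 CPM, against a mean of 66.62 CPM in NR and of 68.38, 66.12 and 69.81 CPM at days 1, 3 and 8.

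**Figure D1:**
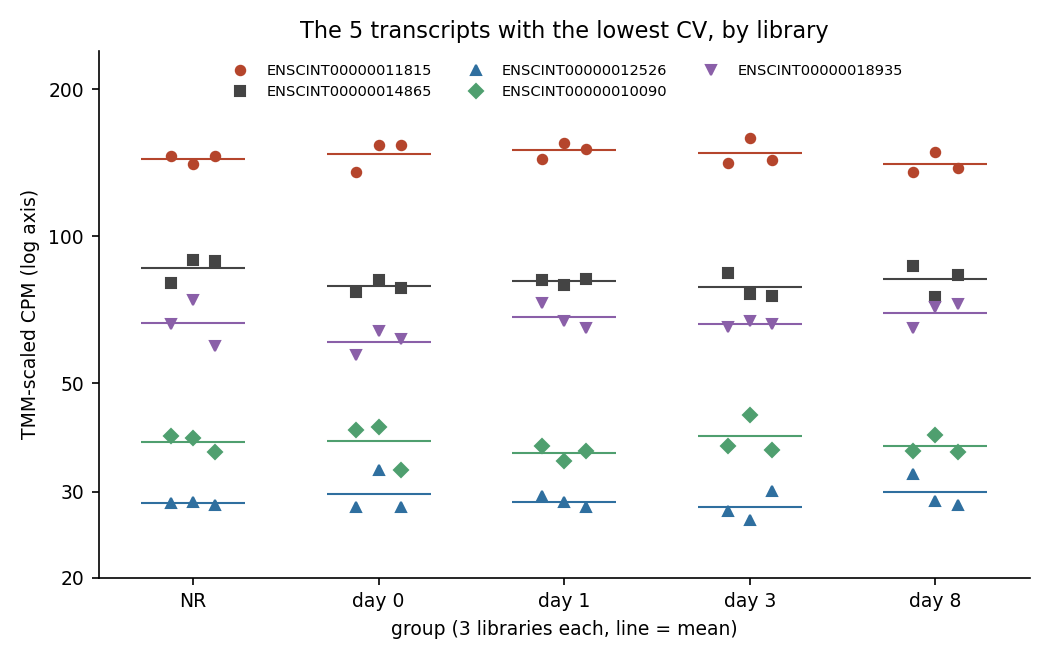
TMM-scaled CPM on a log axis for the 5 transcripts with the lowest CV, in the NR group and at days 0, 1, 3 and 8. Points are libraries, 3 a group, and lines are group means; within each transcript the highest library is 1.17 to 1.30 times the lowest.

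Ratios between these 5 are a description, since each had been chosen for a low CV in the same libraries. Over the 15 libraries, the CV of the ratio of raw counts ran from 7.47%, for ENSCINT00000014865 over ENSCINT00000012526, to 9.97%, for ENSCINT00000010090 over ENSCINT00000018935. The first of these ratios lay between 2.45 and 3.17 and the other between 0.499 and 0.704.

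Across the 200, the CV had a median of 10.6% and ended at 11.8%, where the 5820 transcripts had a median of 26.8% and a highest value of 222%. The choice fixes that difference. The highest library was 1.17 to 1.72 times the lowest, with a median of 1.44, and it stayed under 1.5 times in 144 of the 200, against 177 of all 5820. The widest range was that of ENSCINT00000013942, at 43.48, 40.65 and 30.42 CPM in the NR libraries, 43.2, 43.28 and 39.43 CPM at day 0, 52.36, 49.63 and 39.76 CPM at day 1, then 44.75, 42.2 and 39.25 CPM on day 3 and 41.19, 45.56 and 45.88 CPM at day 8. A single low pool, NR replicate 3, and a single high one, day 1 replicate 1, set it. ENSCINT00000001169 came second, with 37.06, 24.1 and 32.27 CPM in the NR libraries, and 31.16 to 40.31 CPM in the other 12. There NR replicate 2 lay apart, and without it the CV of 11.5% became 7.29%.

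The edge of the list fell in a dense part of the distribution. The last transcripts inside were ENSCINT00000022462, with a mean of 26.24 ± 3.10 CPM, and ENSCINT00000012742, with 193.3 ± 22.8 CPM, and both had a CV of 11.81%. The first outside were ENSCINT00000035395, with 134.0 ± 15.8 CPM and a CV of 11.81%, and ENSCINT00000035555, with 53.59 ± 6.33 CPM and a CV of 11.82%. The CV does not part these 4. They differed in what lay behind it: counting made up 18.5% of the variance of ENSCINT00000022462, against 2.49%, 3.54% and 9.15% for the others in the order given. The minimum mean also cut through steady transcripts. ENSCINT00000022533, the steadiest of those with a mean of 10 to 20 CPM, had a CV of 8.88% at 15.16 ± 1.35 CPM.

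The steady transcripts lay in the middle of the range of read counts and were scarce at both ends. CPM is not divided by transcript length, which the files do not give, so these are ranks of reads and not of molecules. The median of the mean levels was 53.7 CPM for the 200 and 49.4 CPM for all 5820. When the 5820 were ranked and cut into 10 classes of 582, the class with the most reads, with means of at least 229 CPM, held 4 of the 200, and the class with the fewest, with means of 20 to 23.49 CPM, held 2. The other classes held between 19 and 32. In the top class the median CV was 43.2%, the highest of the 10, although its median counting CV of 1.23% was the lowest. In the bottom class the median counting CV was 5.58%.

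**Figure D2:**
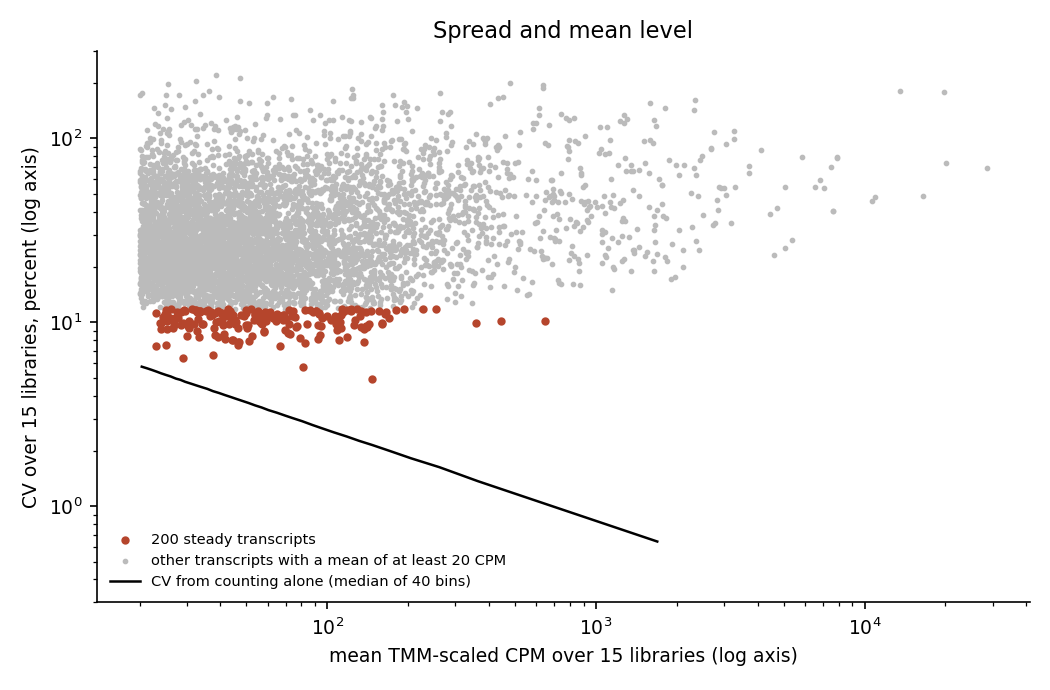
CV over the 15 libraries in percent against mean TMM-scaled CPM, both on log axes, for the 200 steady transcripts and the rest of the 5820 with a mean of at least 20 CPM; the line is the CV from counting alone. The 200 lie at CVs of 4.93% to 11.8%, above the line, with 4 at means of at least 229 CPM.

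The most read of the 200 was ENSCINT00000009296. It had 770.1, 769.9 and 679.8 CPM in the NR libraries, 618.8, 613.0 and 615.6 CPM at day 0, 649.1, 692.9 and 572.1 CPM at day 1, then 685.2, 639.7 and 673.7 CPM on day 3 and 557.5, 591.6 and 575.8 CPM at day 8. The NR libraries lay above those of day 0 and of day 8 without overlap, as 41.8% and 33.9% of all transcripts tested also parted in one direction or the other. For this transcript, 75.8% of its sum of squares was between groups, the highest share of the 200. Counting made up 1.02% of its variance. ENSCINT00000014192 came next, at 486.7 ± 46.1 CPM in NR, and at 404.9 ± 35.1, 425.6 ± 26.0, 422.4 ± 50.9 and 472.7 ± 8.27 CPM at days 0, 1, 3 and 8 (SD, n = 3 each). The least read were ENSCINT00000022534, at 23.09 ± 1.71 CPM, and ENSCINT00000025230, at 23.09 ± 2.61 CPM (SD over 15 libraries). For ENSCINT00000022534 the CV was 7.42%, and counting made up 52.5% of the variance.

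Counting made up a median of 12.0% of the variance of the 200, and over 50% in 2 of them. The rest of the spread can hold differences between siphon states, between pools and in library preparation. Pools and preparation cannot be told apart with 1 library a pool. A median of 29.5% of a steady transcript's sum of squares was between groups, against 49.5% over all 5820. With 3 libraries in each of 5 groups, scatter between pools alone puts part of the sum of squares between groups. The 29.5% is therefore not the part due to siphon state. Within groups the median CV of the 200 was 10.4% in NR and 7.97%, 7.74%, 8.15% and 7.88% at days 0, 1, 3 and 8. The same over all 5820 was 23.5% in NR and 15.9%, 16.5%, 18% and 15.4% at those days. The NR pools were thus the most uneven for the steady transcripts too.

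In 4 pairs among the 200, the count differences summed over the 15 libraries came to at most 1% of the larger total, as for copies or isoforms with the same reads. At a tolerance of 5%, chosen after the data were seen, 13 pairs met it, with 25 of the 200 in 12 sets, so the list may hold 187 separate signals or fewer. In the closest pair, ENSCINT00000010838 and ENSCINT00000010846 had 22909 and 22926 counts in all. Transcripts that share reads at different levels would not be found this way, and without a record of strand use, reads of overlapping or antisense transcripts cannot be told apart.

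The libraries did not contribute evenly to what variation was left. The 3 NR libraries held the highest value of 54 of the 200 transcripts (27%) and the lowest of 69 (34.5%). Over all 5820 they held the highest of 39.7% and the lowest of 45.5%. Day 8 libraries held the highest value of 9% of the 200 and the lowest of 23.5%, against 9.21% and 12.9% of all 5820. Day 1 libraries held the highest of 24% and the lowest of 8.5%, against 11.9% and 8.26% of all. The share of the 200 that had a log2 distance of under 0.32 from their own mean log2 level was lowest in NR replicate 3, at 90.5%, and reached 100% in day 0 replicate 1, day 1 replicate 2 and day 3 replicate 2. The first principal component of the log2 levels of the 200 held 15.2% of their variance, against 55.9% for the 5820. The choice leaves out transcripts that vary widely, so that difference follows at least in part from it. The ends of the first component of the 200 mixed the stages. Day 0 replicate 2, day 8 replicate 3 and day 1 replicate 1 lay at 1.34, 1.28 and 1.14. NR replicate 3, day 1 replicate 3 and NR replicate 2 lay at -1.15, -1.12 and -1.02. On the second component, with 12.7% of the variance, the NR libraries lay apart, at 0.556, 1.04 and 1.71, above all other libraries, of which the highest lay at 0.394. The median correlation between a pair of the 200 over the 15 libraries was 0.0436, a description over points that share their libraries.

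How steady the 200 looked depended on the scale. As a share of all counts, they took 1.13%, 1.19% and 0.968% of the NR libraries, 1.39%, 1.45% and 1.57% at day 0, 1.59%, 1.69% and 1.75% at day 1, then 1.70%, 1.70% and 1.37% on day 3 and 1.62%, 1.60% and 1.56% at day 8. Every NR library lay below each of the other 12. After TMM scaling the sums were level, at 14670 ± 174 CPM in NR and 14673 ± 489, 14927 ± 385, 14700 ± 220 and 14367 ± 406 CPM at days 0, 1, 3 and 8 (SD, n = 3 each). The choice of the list on these scaled values largely fixes that. With level scaled sums, the lower NR shares mirror the lower TMM factors of the NR libraries. By share of the library total, 114 of the 200 (57%) were lower in all 3 NR libraries than in any other, against 34.8% of all 5820, and the median ratio of NR to day 0 was 0.735. The median log2 fold change of NR against day 0 on that scale was -0.44 for the 200 and -0.44 for all transcripts tested. On that scale the median CV of the 200 was 19.1%, and the 200 lowest CVs picked from it had 15 transcripts in common with the list. From counts alone, an equal amount of these RNAs in all siphons and a lower amount in NR siphons cannot be told apart, and neither can fewer cells of a type and less RNA per cell.

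**Figure D3:**
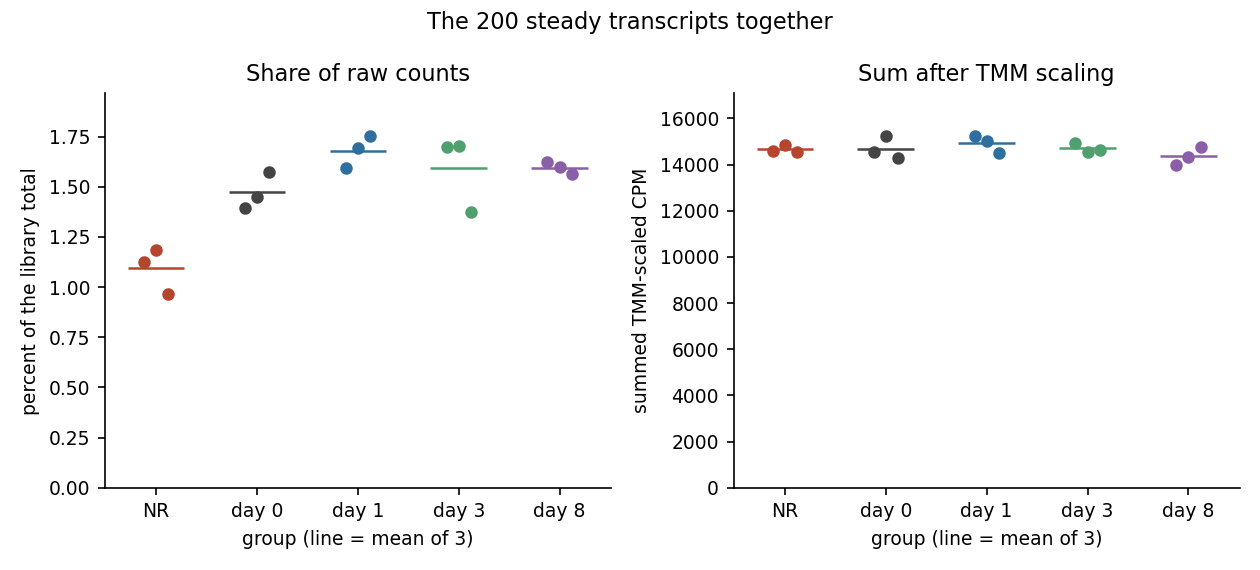
The 200 steady transcripts together, in the NR group and at days 0, 1, 3 and 8: percent of each library's total counts (left) and summed TMM-scaled CPM (right), with both axes from 0. Points are libraries and lines means of 3. The NR libraries lie at 0.968% to 1.19% of their totals, below the 1.37% to 1.75% of the other 12. The scaled sums lie at 13971 to 15248 CPM, a levelness that the choice of the list largely fixes.

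Steadiness was also ranked by a measure in which the scaling of libraries nearly cancels. Scaling entered it only through the minimum mean of 20 CPM and a prior of 0.5 CPM. For every transcript, the SD over the libraries of its log2 ratio to each of the others was averaged, and the 200 lowest had 157 transcripts in common with the list. The lowest-placed of the steady transcripts ranked 400 of 5820 by it. Its reference is the bulk of transcripts, as for TMM, so the overlap cannot show whether the 200 or the bulk moved in NR. This measure was chosen after the data were seen. Each transcript was also followed as single libraries were left out and the list was drawn again. Of the 200, 115 stayed on the list in all 15 cases, among them each of the first 50 and none of the last 50.

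In an edgeR quasi-likelihood fit of all 15 libraries, with Benjamini-Hochberg adjustment over 15328 transcripts and a threshold of 0.05, 0 of the 200 were called in any comparison, which the choice of list largely fixes. In the test over the 5 groups 15.5% of all transcripts were called. Of all transcripts, 28.3% were called for NR against day 0, 0.0326% for day 1 against day 0, and 0% for days 3 and 8 against day 0. Against NR, the shares were 13.7% for day 1, 20.6% for day 3 and 16.9% for day 8. At an unadjusted p under 0.05 there were 6 of the 200 for NR against day 0 (41.8% of all tested), 1, 0 and 0 for days 1, 3 and 8 against day 0 (10.5%, 6.8% and 14.3%), 1, 1 and 5 for those days against NR (29.5%, 35.2% and 32.4%), and 0 over the 5 groups (31.6%). DESeq2 called 5 of the 200 for NR against day 0 (32.9% of all), 2, 3 and 4 for days 1, 3 and 8 against NR (19.2%, 25.3% and 22.7%), 0 for each of those days against day 0 (1.03%, 0.208% and 2.47%), and 1 over the 5 groups (27.2%).

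Among the 200, log2 fold changes of NR against day 0 lay between -0.37 and 0.39. The highest was that of ENSCINT00000003701, with 80.48, 97.13 and 95.96 CPM in NR and 72.28, 68.54 and 75.42 CPM at day 0, and a log2 fold change of 0.39 ± 0.162 (SE). The lowest was that of ENSCINT00000008894, with 80.06, 78.07 and 66.25 CPM in NR and 105.6, 93.84 and 101.5 CPM at day 0, and a log2 fold change of -0.37 ± 0.145. In both, the NR and day 0 libraries did not overlap, as for 41.8% of all transcripts tested. Both values belong to the libraries that chose the list and carry no test.

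Lists chosen without the levels of a group gave a view that the choice does not fix in full. The TMM factors were still those of all 15 libraries, so the left-out group entered the scaling. The rule was applied to the 12 libraries of the other groups, and the left-out group was then read. Of the 200 chosen without NR, 62% had a log2 ratio of their NR mean to their mean in the other 12 of less than 0.32 in size (124 of 200, exact 95% binomial interval 54.9% to 68.8%), against 37.6% of all transcripts with at least 20 CPM in those 12. For the other groups the shares at days 0, 1, 3 and 8 were 96%, 99%, 97% and 98%, against 55.7%, 79.1%, 75.8% and 73.0% of all. The transcripts of a list share their libraries, so the interval covers the count of transcripts and not the spread of pools. With replicate 3 of days 1, 3 and 8 left out, the shares for days 0, 1, 3 and 8 were 87.0%, 92.0%, 92.5% and 90.5%.

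The lists differed as much as the readings did. The 200 chosen without NR had 88 transcripts in common with the full list, whereas those chosen without days 0, 1, 3 and 8 had 148, 150, 150 and 160. The list without NR was tighter, with a boundary CV of 9.28% over its 12 libraries. In NR the median size of the log2 ratio to the other 12 libraries was 0.23 for that list and 0.46 for all transcripts. By more than 0.32, 42 of the 200 were higher and 34 lower, where 37.6% of all lay inside that window. For the list, the median size was 0.26, 0.27 and 0.34 in NR replicates 1, 2 and 3, with 60.5%, 61.5% and 48.5% inside the window. For days 0, 1, 3 and 8 the median size was 0.11, 0.08, 0.07 and 0.09, against 0.28, 0.15, 0.16 and 0.17 for all. A ratio beyond 2-fold was found in 6 of the 200 in NR (3%), against 22% of all. It was found in 0 at each of the other 4 stages, against 9.56%, 2.16%, 2.98% and 3.45% of all at days 0, 1, 3 and 8.

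**Figure D4:**
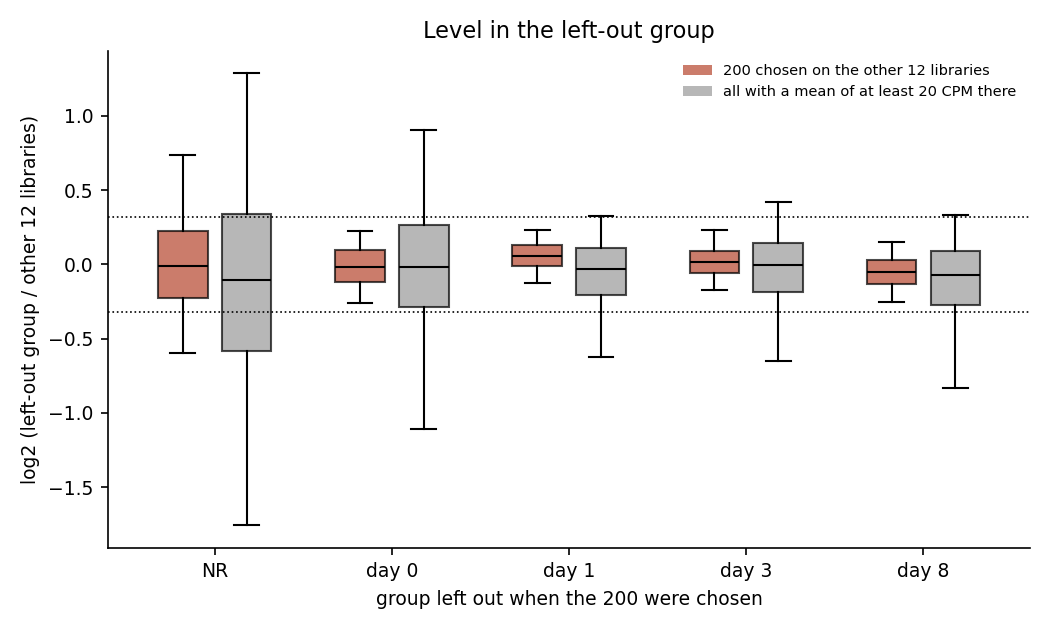
Log2 ratio of the left-out group's mean CPM to the mean of the other 12 libraries, for 200 transcripts chosen on those 12 and for all with a mean of at least 20 CPM there. Boxes show quartiles and medians, whiskers the 5th and 95th percentiles, and dotted lines the window of 0.32 either way; the box of the 200 is widest for NR, where 62% lie within the lines.

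The last step left both groups of a comparison out of the choice, so that the 200 were picked on the 9 libraries of the other 3 groups. The TMM factors for this choice were again those of all 15 libraries. The 200 steadiest at days 1, 3 and 8 had log2 fold changes of -1.87 to 1.34 for NR against day 0. The median size was 0.27, against 0.55 for all transcripts with at least 20 CPM in those 9. In the edgeR fit of all 15 libraries, 51 of the 200 passed (25.5%), 26 higher and 25 lower in NR, against 28.3% of all tested (14.7% higher, 13.6% lower) and 35.9% of those with at least 20 CPM. That fit takes its spread from all 15 libraries, including the 9 in which the list was chosen for low spread. In a fit of the 6 NR and day 0 libraries alone, 21 of the 200 passed (10.5%), 9 higher and 12 lower in NR, against 18.7% of all tested and 23.9% of those with at least 20 CPM. The NR and day 0 libraries, read without any fit, did not overlap in 37% of the 200, against 41.8% of all tested and 48% of those with at least 20 CPM. More than 2-fold differences were called in 5.5% of the 200 and 22.3% of the transcripts with at least 20 CPM, in the fit of 15.

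The comparisons of the regrowth days with NR share the NR libraries. In the fit of 15 libraries the lists had 36 calls at day 1, 52 at day 3 and 35 at day 8 (18%, 26% and 17.5%), against 13.7%, 20.6% and 16.9% of all tested and 19.7%, 27.7% and 22.6% of those with at least 20 CPM. In fits of 6 libraries they had 5, 11 and 4 calls (2.5%, 5.5% and 2%), against 5.13%, 9.51% and 6.32% of all tested and 8.01%, 13.6% and 9.28% of those with at least 20 CPM. Set against all tested, the lists were above in the fit of 15 and below in the fits of 6. In the fit of 15, the count for day 1 was 23 without day 1 replicate 1 and 19 without its replicate 2, that for day 3 was 33 without day 3 replicate 2, and that for day 8 was 16, 20 and 20 without day 8 replicates 1, 2 and 3 and 23 without day 1 replicate 2. The shares of all tested called in these fits were 7.42% and 6.23% for day 1, 13.7% for day 3, and 10.2%, 11.1%, 10.5% and 15% for day 8, in the same order. The libraries did not overlap in 34.5%, 37.5% and 37.5% of the lists at days 1, 3 and 8, against 30.7%, 34.2% and 33.9% of all tested and 35.7%, 40.8% and 39.7% of those with at least 20 CPM. By direction, day 1 had 16 calls higher and 20 lower than NR (6.47% and 7.19% of all tested), day 3 had 12 and 40 (10.3% and 10.3%), and day 8 had 13 and 22 (8.16% and 8.74%). The median sizes of the log2 fold changes were 0.26, 0.29 and 0.24 for the lists, against 0.43, 0.49 and 0.46 for all with at least 20 CPM in the libraries that chose them.

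Against day 0, which days 1, 3 and 8 share as control, the lists had 0 calls for each day in the edgeR fit of 15 libraries and in fits of 6. The fits of 6 called 0.0134%, 0.00684% and 0.00679% of all tested and 0.0344%, 0.0173% and 0% of those with at least 20 CPM. The fit of 15 called 0.0516%, 0% and 0% of the transcripts with at least 20 CPM. At an unadjusted p under 0.05 the fit of 15 had 7, 11 and 15 of the 200 (3.5%, 5.5% and 7.5%), against 10.5%, 6.8% and 14.3% of all tested. The fits of 6 had 3, 2 and 8, against 16.9%, 10% and 18.4% of all tested. DESeq2, at its adjusted threshold, called 0, 0 and 2 of the lists, against 1.03%, 0.208% and 2.47% of all tested. The libraries did not overlap in 10.5%, 11% and 19% of the lists, against 23.1%, 14.2% and 22.2% of all tested and 26.2%, 13.4% and 27.3% of those with at least 20 CPM. Without replicate 3 of days 1, 3 and 8, edgeR called 0, 1 and 5 of the lists, where 0%, 1.67% and 6.32% of all tested passed.

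**Figure D5:**
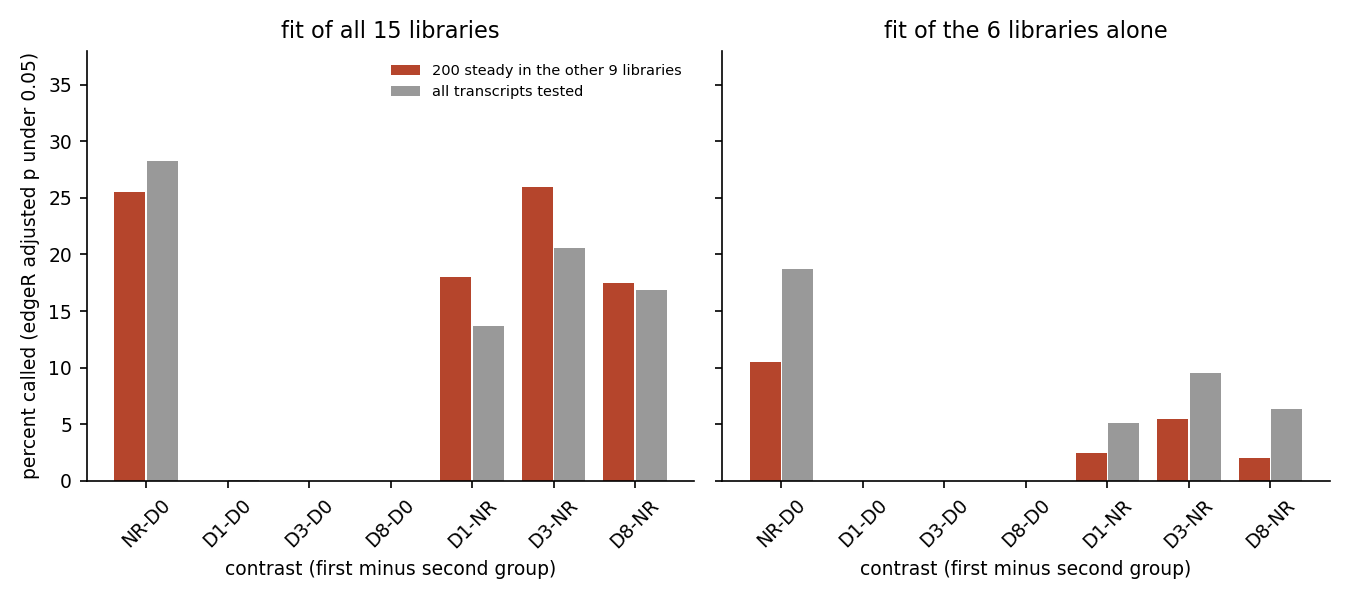
Percent of transcripts called in edgeR (adjusted p under 0.05) in each contrast, written as first minus second group, for the 200 steadiest in the other 9 libraries and for all transcripts tested. In the fit of 15 libraries (left) NR-D0 has 25.5% of the list and 28.3% of all, and in fits of the 6 libraries of a contrast (right) 10.5% and 18.7%.

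Some of the transcripts steadiest across regrowth stood far off in NR. Of the 8 called transcripts with the lowest or highest fold change in their list, 5 passed the threshold in all 22 alternatives tried, 2 missed it in 1 alternative and 1 missed it in 5. The following 4 were picked from the 5 that passed throughout, with their values known. ENSCINT00000031899 was chosen in the list that left out day 1 and NR, with a CV of 7.54% over the other 9 libraries. It had 860.8, 734.3 and 999.6 CPM at day 1, against 3856, 4488 and 4590 CPM in NR, or -2.36 ± 0.212 (SE) as a log2 fold change (edgeR adjusted p of 6.18e-05). The days 0, 3 and 8 libraries, which chose it, held 659.0 to 856.3 CPM, so NR stood apart from all others. ENSCINT00000026977, with a CV of 7.56% over days 1, 3 and 8, had 2716, 2905 and 4887 CPM in NR, against 1470, 1307 and 1543 CPM at day 0, or 1.34 ± 0.247 as a log2 fold change (adjusted p in edgeR, 0.00173).

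Others were low in NR. ENSCINT00000027193 had a CV of 5.01% over days 1, 3 and 8, at 42.99 to 51.14 CPM. It had 28.76, 10.1 and 7.961 CPM in NR, against 63.9, 50.95 and 62.28 CPM at day 0, or -1.87 ± 0.344 as a log2 fold change (adjusted p in edgeR, 0.00171). All NR libraries lay below all others, with NR replicate 1 nearest to them. ENSCINT00000014082, with a CV of 7.06% over days 0, 1 and 8, had 65.88, 60.88 and 54.01 CPM at day 3, against 29.25, 31.9 and 21.75 CPM in NR, or 1.08 ± 0.165 as a log2 fold change (adjusted p in edgeR, 0.000752). The day 3 libraries also lay above the 44.4 to 54.48 CPM of the libraries that chose it, apart from replicate 3, so this transcript differed from the chosen range in both groups. Over the alternatives, adjusted p for these 4 was highest in the fit of 6 libraries, at 0.014, 0.0292, 0.033 and 0.0291 in the order given.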

How the data were processed

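The deposited table held whole-number read counts, not normalized by the authors, for each Ensembl transcript identifier. Per the submitters' processing notes, TopHat, Bowtie and HTSeq were used; the sources used here do not give versions, settings, genome build, annotation release or strand use. Counts were scaled by TMM over all rows (edgeR 4.0.16, R 4.3.3). Tests used edgeR's quasi-likelihood fit with robust estimation, a mean per group, its default expression filter with a minimum count of 10 (15328 of 17745 transcripts tested, all 200 members among them), and two-sided Benjamini-Hochberg adjusted p under 0.05. DESeq2 1.42.0 was an alternative. Held-out ratios used a prior of 0.5 CPM. The counting CV is that of a Poisson count at each library's depth. Scripts were tested on simulated data. The members and lists were chosen with earlier results of these data known.

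Named transcripts were, by rule, the 5 lowest CVs, the 2 highest and 2 lowest means, the 2 transcripts on each side of the boundary, the 2 widest ranges, the largest rise and fall for NR against day 0, and the steadiest between 10 and 20 CPM. ENSCINT00000010838, ENSCINT00000010846 and the extremes of the held-out lists were named after their values were seen. Gene lists and cell type markers could not be applied. Replicate pairs differed by 21.2 to 216 times sampling noise (chi-square per degree of freedom), so each library counted once. Replicates 1 and 2 differed by 39.1, 58.2, 22.6 and 21.2 at days 0, 1, 3 and 8. Pairs with replicate 3 at those days differed by 102 to 187. Whether replicates came from separate animals is not stated, so p-values measure the spread between pools.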

Additional observations from a re-analysis of the deposited data

How the results depend on the processing

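The list depended on the scaling, the measure of spread, the minimum mean and the NR libraries. Of the 200, 15 were shared with the list drawn on library totals alone, 107 with a minimum mean of 50 CPM, 59 with the median absolute deviation over the median, 81 with the CV of group means, 92 without the NR group (with factors recomputed), and 138 to 190 when single libraries were left out. The 107 are by rule the steady transcripts with means of at least 50 CPM. A list of 100 is by rule the first 100 of the 200, so its overlap was fixed. RLE factors, the SD of log2 CPM, a minimum of 1 or 10 CPM and subtraction of counting variance shared 166, 181, 185, 186 and 185. The median CV was 13.5% with library totals, 14.1% with the median absolute deviation, 12.6% with group means, 8.33% without NR and 9.78% to 10.7% with single libraries left out. The CV of the last member was 15.1% with library totals, 13.3% with the minimum of 50 CPM, 14.3% with the median absolute deviation, 9.22% without NR, 13.5% in a list of 400, and 10.9% to 12.0% with single libraries left out. The median counting share of the variance was 4.41% with library totals, 6.08% with the minimum of 50 CPM, 6.41% with the median absolute deviation, 18.2% without NR, and 11.4% to 13.3% with single libraries left out.

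With library totals, 20.5% of the list chosen without NR lay within the window of 0.32 in NR and 94.0% of that without day 1 in day 1; at day 8 a minimum of 50 CPM gave 100%. Leaving out replicate 3 of days 1, 3 and 8 gave 87.0%, 92.0%, 92.5% and 90.5% for days 0, 1, 3 and 8. Leaving out single libraries gave 55.5% to 63.0% for NR and 86.0% to 97.5%, 94.5% to 99.5%, 93.5% to 98.5% and 91.0% to 98.5% for days 0, 1, 3 and 8; the cause was not tested. For day 0, the lowest was without day 3 replicate 3.

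With library totals, which moved the median log2 fold change of all transcripts for NR against day 0 to -0.44, against 0.04 with TMM, 64 of the full list were called lower in NR than at day 0 (35.8% of all called), 159, 122 and 126 were called higher at days 1, 3 and 8 than in NR (36.4%, 36.8% and 35.5%), and 65 over the 5 groups (28%). The lists of 9 libraries had 114 calls for NR against day 0 and 141, 123 and 120 for days 1, 3 and 8 against NR. With DESeq2 the full list had 5, 2, 3 and 4 calls in those comparisons and 1 over the 5 groups, and the 9-library lists had 60 for NR against day 0 (32.9% of all), 59, 67 and 53 for days 1, 3 and 8 against NR (19.2%, 25.3% and 22.7%) and 2 for day 8 against day 0 (2.47%). Fits of 6 libraries gave these lists 21 calls for NR against day 0 (18.7% of all) and 5, 11 and 4 for days 1, 3 and 8 against NR (5.13%, 9.51% and 6.32%). Without replicate 3 of days 1, 3 and 8 they had 1 call for day 3 and 5 for day 8 against day 0 (1.67% and 6.32% of all). Single libraries left out gave 37 to 54 for NR against day 0 (18.9% to 32.2% of all). For days 1, 3 and 8 against NR they gave 19 to 39, 33 to 57 and 16 to 41. The fewest came without day 1 replicate 2, day 3 replicate 2 and day 8 replicate 1. The shares of all for those days were 6.23% to 20.3%, 13.7% to 26.9% and 10.2% to 24.7%. For those days against day 0 they gave 0, where at most 0.0512%, 0% and 0.506% of all passed. The full list had 0 or 1 for NR against day 0, the 1 without NR replicate 3 (24.8% of all), and 0 elsewhere.

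Same-numbered libraries did not deviate alike as a rule. Their deviations correlated at -0.592 to 0.302, over 0.1 in 5 of 30 pairs, and 3 of 15 libraries correlated best with their own number. The correlations largest in size were between libraries numbered 3. They were -0.592 for days 1 and 8, -0.302 for days 1 and 3, and 0.302 for days 3 and 8. The cause was not tested. The replicate block gave the 9-library lists 46 calls for NR against day 0 (25.6% of all) and 30, 45 and 25 for days 1, 3 and 8 against NR (11.4%, 18% and 14.1%), and 0 for the full list. For days 1, 3 and 8 against day 0, the 9-library lists had 0 calls with the block as without it. Over all tested, the block took the calls from 5 to 0 for day 1 against day 0. In the test over the 5 groups it took them from 2379 to 1845.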
